A study of Mus musculus with 6 samples.

Results

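The cyclins, cyclin-dependent kinases (CDKs), CDK inhibitors, retinoblastoma and E2F factors, DNA replication genes and mitotic genes of mouse brain endothelium were compared between sorted cells and the suspension they came from. Members were chosen by symbol alone, and 79 of the 10989 genes of the deposited table matched. RefSeq lists 108 protein-coding mouse genes with matching symbols, and the other 29 were not analysed here, among them the mitotic genes Ccnb1, Cdk1, Aurka and Plk1, the E-type cyclins Ccne1 and Ccne2, and Cdk6.

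All 6 libraries came from brains of mice that carried both Tie2-cre and NuTRAP (genotype label Tie2-cre+; NuTRAP+, with WT in the titles). Tie2-cre expresses Cre recombinase from the promoter of the endothelial receptor Tie2, which is also active in some blood-derived cells, and NuTRAP is a Cre-dependent reporter that puts EGFP on ribosomes. The 3 Positive libraries hold total RNA of cells sorted as EGFP positive, CD31 positive and CD11b negative, and the 3 Input libraries hold RNA of the dissociated brain before sorting. Replicate numbers 1222, 1223 and 1227 occur once in each fraction, and the sources used here do not give the ages of the mice. Input contains endothelial cells too, so a fold change is the level in sorted cells relative to a mixture. In such bulk samples fewer cells of a type and less RNA per cell cannot be told apart.

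Summed estimated counts ran from 4772866 to 23525401 in Positive and from 4814966 to 52283556 in Input, and both 1223 libraries were the shallowest of their fraction. Levels are given as CPM, the usual depth-scaled count, after TMM scaling between libraries, and a call means a Benjamini-Hochberg adjusted p below 0.05 in edgeR's quasi-likelihood test over all 10989 genes. All 10 endothelial markers tested rose in Positive, and their summed level was 22130, 24070 and 22790 CPM in Positive 1222, 1223 and 1227, while Input had 3033, 4178 and 3107 CPM. The deposited table keeps a gene only where every library of at least 1 fraction reached 50 counts. Both fractions reached it for 63 of the 79 members, only Input for 12 and only Positive for 4. A member kept through 1 fraction alone was favoured to be higher there.

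Passage through the cell cycle is driven by CDKs that are active only when bound to a cyclin. D-type cyclins with Cdk4 and Cdk6, then E-type and A-type cyclins with Cdk2, phosphorylate the retinoblastoma proteins and free E2F factors, which switch on the genes of DNA replication, while CDK inhibitors of the Cip/Kip and INK4 families hold the kinases back. Most endothelial cells of the adult brain are quiescent. Several members of the cyclin and CDK families have no role in the cycle and serve transcription, neuronal signalling or membrane signalling.

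Of the 79 members, 15 rose and 11 fell in Positive, 19% and 13.9% of them, against 26.1% and 29.4% of all 10989 genes, and calls in either direction covered 32.9% of members and 55.5% of all genes. Every Positive library lay above every Input library in 19 members, and below in 12, against 31.8% and 32.6% of all genes. The median log2 fold change was 0.00 over the members and 0.03 over all genes, and the median size of the change was 0.33 over the members and 0.63 over all genes. In 51 of the 79 members the fitted difference was smaller than 1.5-fold. Among the 63 members that passed the deposited minimum in both fractions, 12 rose and 7 fell, against 30.4% and 19.9% of the 8509 such genes. Each of the 26 called members differed without overlap, which by itself fixes 1 direction within all 3 replicate numbers. Without both libraries of 1227 the number of members that rose was 9, and the number of all genes that rose was 1741, against 2870 with them.

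Markers of other cell types moved as well. Of 9 pericyte and smooth muscle markers tested, 6 rose and 1 fell, with summed levels of 1672, 1336 and 2075 CPM in Positive 1222, 1223 and 1227, while Input had 752, 1065 and 948 CPM. All 10 astrocyte markers fell (866, 576 and 848 CPM in Positive; 7741, 5844 and 9201 CPM in Input), and so did all 9 ependymal and choroid plexus markers (476, 931 and 357 CPM in Positive; 3659, 6441 and 2963 CPM in Input). In Positive 1223 the astrocyte markers Gfap and Gjb6 were under 50 counts. So were Foxj1, Ccdc153, Ak7, Tmem212, Folr1 and Kcnj13 of the ependymal and choroid plexus list. All of these were kept through Input only and so were favoured to be lower in Positive. No tested marker of these 3 lists was at 0 counts in all Positive libraries, and their part in the rises and falls of the members was not tested.

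**Figure D1:**
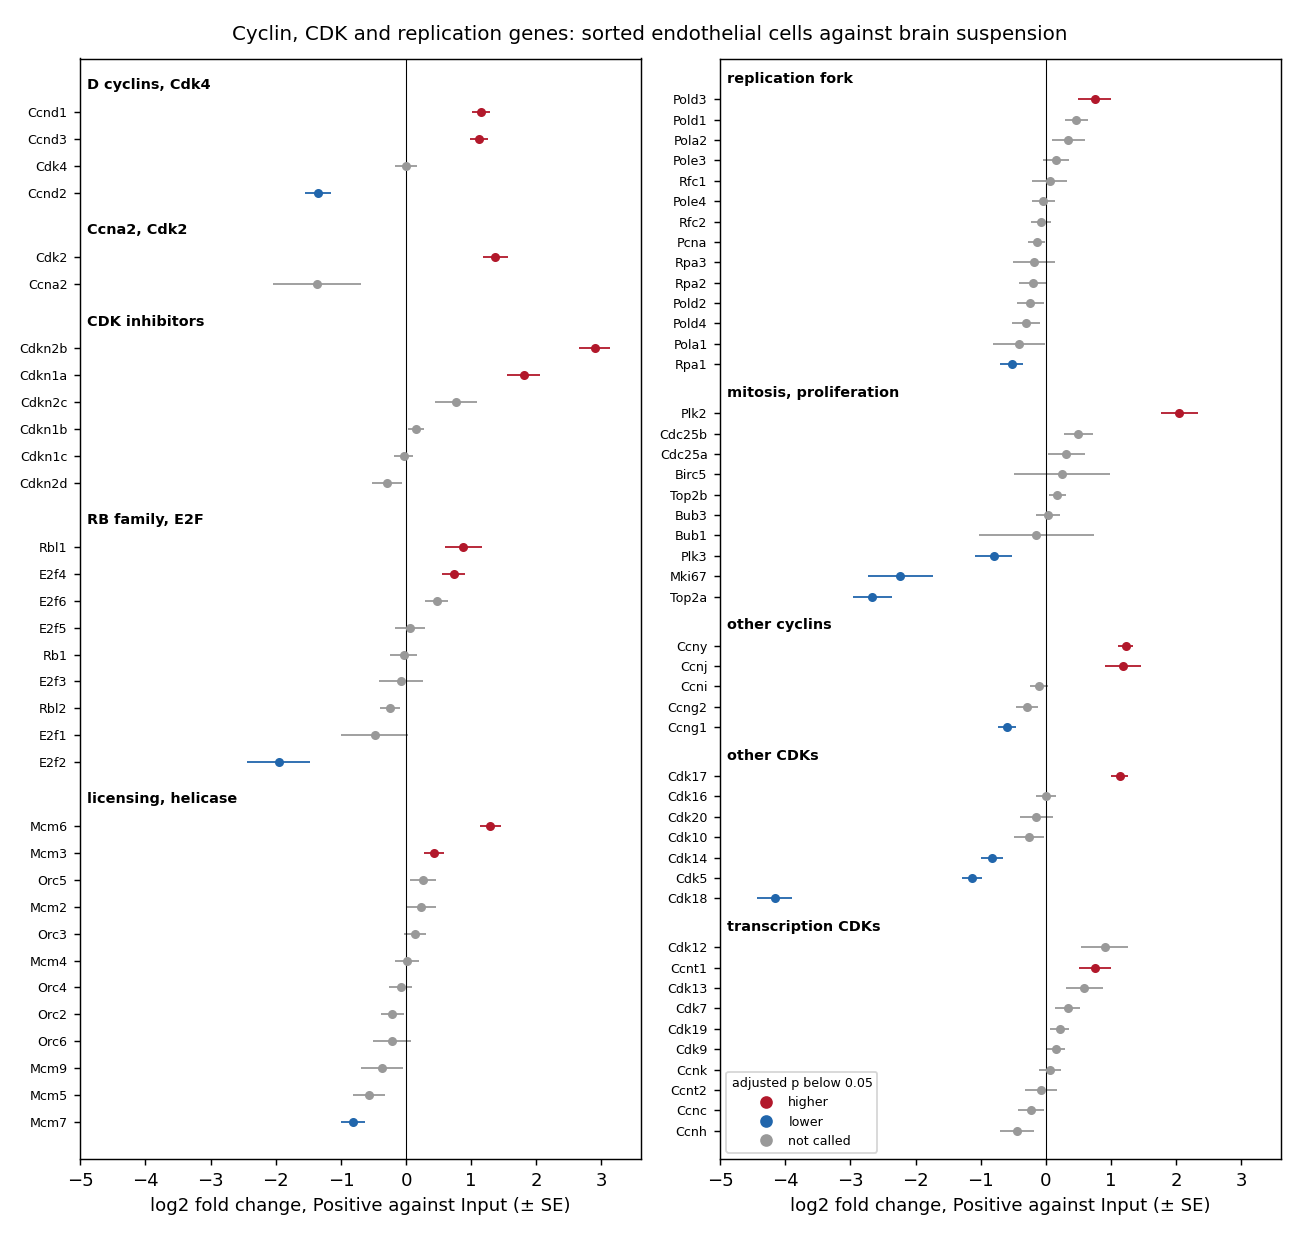
Fitted log2 fold change of Positive against Input for each of the 79 members, with its standard error (SE) as a bar, grouped by role and coloured by call. Cdkn2b at 2.90 and Plk2 at 2.05 lie farthest to the right, Cdk18 at -4.16 farthest to the left, and most replication genes lie near 0.

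The D-type cyclins did not move together: Ccnd1 and Ccnd3 rose and Ccnd2 fell. Ccnd1, which encodes cyclin D1, the cyclin induced by growth factor signals (chromosome 7, 144929931 to 144939925, mm10), had 232, 270.1 and 304 CPM in Positive 1222, 1223 and 1227, while Input had 119, 115 and 130 CPM. Ccnd3 had 178, 199.8 and 212 CPM in Positive and 100.2, 78.5 and 92.5 CPM in Input. For both genes every Positive library lay above every Input library. The log2 fold changes were 1.15 ± 0.14 for Ccnd1 (SE; adjusted p = 0.000152) and 1.12 ± 0.14 for Ccnd3 (adjusted p = 0.000193) by edgeR. Ccnd2 had 60.2, 38.6 and 57.4 CPM in Positive, while Input had 155, 133 and 115 CPM, again without overlap, a log2 fold change of -1.35 ± 0.20 (adjusted p = 0.000466, edgeR).

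Scaled to exon length (CPM per kilobase of annotated exon), Ccnd2 made up 6.58% ± 1.79 of the summed D-type cyclin level in Positive and 28.3% ± 3.59 in Input (SD, n = 3 each). Ccnd1 made up 67.0% ± 1.83 in Positive and 51.3% ± 3.67 in Input. The groups did not overlap for either share, and the exact two-sided permutation test gave 0.1, the smallest p that 3 against 3 unpaired libraries allow. The kinase partner Cdk4 had 73.0, 84.3 and 83.5 CPM in Positive and 71.6, 101.1 and 69.4 CPM in Input, with overlapping groups and a log2 fold change of 0.00 ± 0.17 (adjusted p = 0.996, edgeR). Of the annotated exon bases of Ccnd1, 23.4% overlap a gene on the other strand (LTO1 in GENCODE), and whether counting used strand is not given in the sources used here.

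Cdk2, the kinase of the G1/S transition (chromosome 10, 128697939 to 128705051), rose. It had 22.8, 25.9 and 25.2 CPM in Positive, while Input had 10.4, 9.19 and 8.94 CPM, with no overlap, a log2 fold change of 1.37 ± 0.19 (adjusted p = 0.000376, edgeR). Cdk2 passed the deposited minimum in Positive only. Its partner Ccna2, the cyclin of S phase and G2, had 1.99, 8.43 and 1.69 CPM in Positive and 7.25, 14.8 and 6.56 CPM in Input. Within each number Ccna2 was lower in Positive, but across numbers the groups overlapped, and the log2 fold change of -1.37 ± 0.67 did not pass (adjusted p = 0.116, edgeR). With the replicate number as a block it did (log2 -1.56, adjusted p = 0.00984), as it did without Positive 1223 (log2 -2.31), without both 1223 libraries (log2 -1.90) and in limma (log2 -1.47, adjusted p = 0.0417). Ccna2 passed the deposited minimum in Input only, so it was favoured to be lower in Positive.

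Among 6 CDK inhibitors, Cdkn1a and Cdkn2b rose and none fell. Cdkn1a encodes p21, a Cip/Kip inhibitor of Cdk2 that p53 induces (chromosome 17, 29090986 to 29100722), and Cdkn2b encodes p15, an INK4 inhibitor of Cdk4 and Cdk6 that TGF-beta induces (chromosome 4, 89306289 to 89311032). Cdkn1a had 242, 179 and 167 CPM in Positive, while Input had 52.8, 76.9 and 40.4 CPM, a log2 fold change of 1.80 ± 0.25 (adjusted p = 0.000354, edgeR). Cdkn2b had 24.2, 32.4 and 30.7 CPM in Positive, while Input had 3.27, 4.0 and 4.40 CPM, the highest fold change of the members at log2 2.90 ± 0.24 (adjusted p = 1.78e-05, edgeR). Neither gene's groups overlapped. Cdkn2b passed the deposited minimum in Positive only.

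The other inhibitors did not pass. Cdkn1b (p27) had 96.4, 111 and 98.1 CPM in Positive and 95.8, 93.5 and 86.3 CPM in Input, so that the groups did not overlap but the lowest Positive library was close to the highest Input library (log2 0.15 ± 0.12, adjusted p = 0.342, edgeR). Cdkn1c (p57) had 81.9, 86.3 and 88.2 CPM in Positive and 99.6, 87.9 and 75.6 CPM in Input, with overlap (log2 -0.04 ± 0.14). Cdkn2d (p19) did not pass either (log2 -0.29 ± 0.23, adjusted p = 0.313). For Cdkn2c (p18) log2 was 0.77 ± 0.32 (adjusted p = 0.072), and it passed with the replicate block (log2 0.76, adjusted p = 0.0251), in limma (log2 0.83, adjusted p = 0.0123), without Input 1223 (log2 0.99) and without both 1223 libraries (log2 0.80). Per kilobase of exon, Cdkn1a stood first among the 6 inhibitors in Positive, at 55.1 CPM per kilobase ahead of Cdkn1c at 41.9. In Input Cdkn1c stood first at 43.0, ahead of Cdkn1b at 20.2 and Cdkn1a at 16.0. Of the exon bases of Cdkn1c, 30.7% overlap Gm44732 on the other strand, and whether its level, this order and the shares include reads of that gene was not tested. The share of Cdkn1a in the summed inhibitor level was 34.9% ± 6.36 in Positive and 15.8% ± 3.44 in Input (SD, n = 3 each; exact two-sided permutation p = 0.1, the smallest possible).

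**Figure D2:**
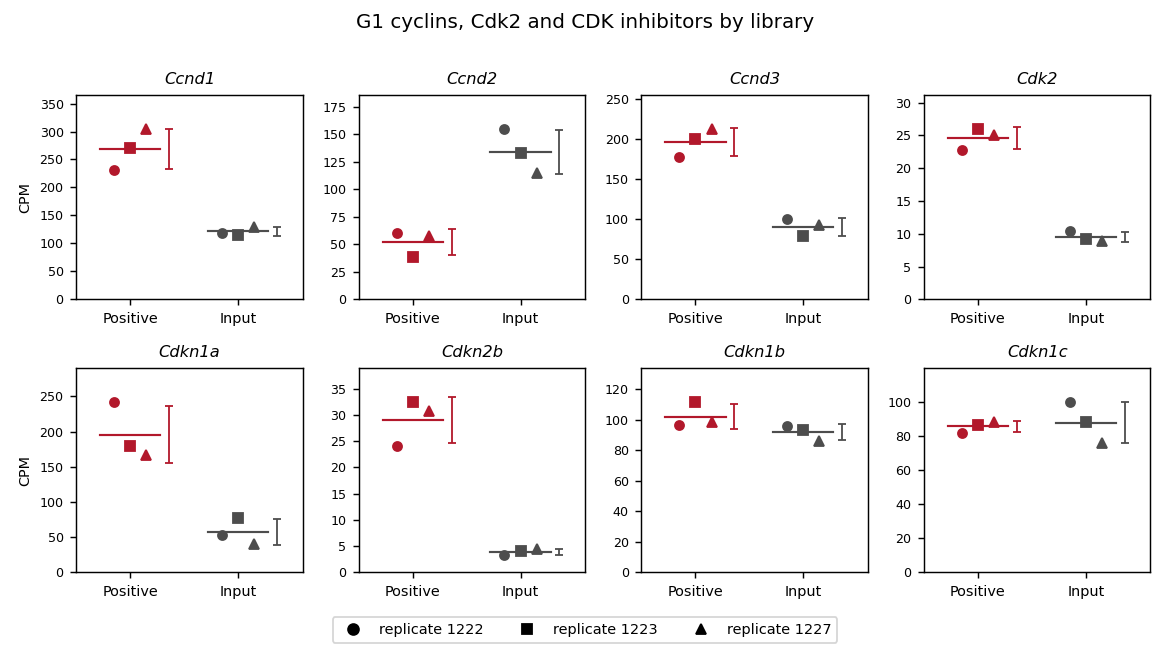
CPM of G1 cyclins, Cdk2 and CDK inhibitors in each library, with Positive left and Input right, a marker shape for each replicate number, a line at the mean and a bar of ± 1 SD (n = 3). Ccnd1, Ccnd3, Cdk2, Cdkn1a and Cdkn2b separate upward in Positive, Ccnd2 separates downward, and Cdkn1c overlaps.

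Cdkn1a was highest in Positive 1222, and so were several marker sums: genes induced by cell dissociation stood at 7607, 3006 and 2539 CPM in Positive 1222, 1223 and 1227 (7172, 7599 and 3721 CPM in Input), and perivascular macrophage markers at 3495, 1385 and 666 CPM (635, 604 and 571 CPM in Input). Microglial markers stood at 3147, 1728 and 1501 CPM in Positive (11990, 6606 and 11590 CPM in Input), and the sum of neuroblast and progenitor markers was also highest there, by a small margin. Of the macrophage markers, Cd209f and Ms4a7 were under 50 counts in Input 1223. They were kept through Positive only and so were favoured to be higher there. In the first list 1 of 14 genes rose (Ier2) and 1 fell (Socs3), in the second 8 of 9 rose and in the third 11 of 11 fell, with no marker of these lists at 0 counts in all Positive libraries. The part of these cells or genes in the level of Cdkn1a was not tested; without Positive 1222 its log2 fold change was 1.62 (adjusted p = 0.000775, edgeR). Of 14 other p53 target genes, all tested, 6 rose and 1 fell (42.9% and 7.14%, against 26.1% and 29.4% of all genes). Calls in either direction covered 50% of the list and 55.5% of all genes. The median log2 fold change of the list was 0.40. Rrm2b is also in the replication list below, and Btg2 in the list of dissociation genes above. Bbc3, which rose, was under 50 counts in Input 1223 (9.59 CPM against 9.98) and so was kept through Positive only. The death receptor gene Tnfrsf10b rose by log2 1.51 ± 0.20, Trp53inp1 by 0.90 ± 0.21 and Gadd45a by 0.76 ± 0.22. Mdm2, the feedback inhibitor of p53, and Bax did not pass, and Phlda3 fell (log2 -1.26 ± 0.23). Ccng1, a member that is itself a p53 target and encodes cyclin G1, had 61.3, 62.3 and 51.0 CPM in Positive, while Input had 86.04, 95.5 and 83.6 CPM. It fell without overlap (log2 -0.60 ± 0.14, adjusted p = 0.0057, edgeR) and did not pass without both 1227 libraries (log2 -0.55).

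Of 9 retinoblastoma and E2F genes, 2 rose and 1 fell. Rb1, which encodes the retinoblastoma protein, had 66.4, 61.4 and 58.8 CPM in Positive and 72.7, 43.2 and 74.0 CPM in Input, with a log2 fold change of -0.04 ± 0.21 (adjusted p = 0.895, edgeR). Its relative Rbl1 (p107) rose (34.1, 19.3 and 21.8 CPM in Positive, while Input had 16.9, 10.2 and 13.4 CPM; log2 0.88 ± 0.28, adjusted p = 0.0268), while for Rbl2 (p130) log2 was -0.25 ± 0.15 (adjusted p = 0.188). Rbl2 shares 21% of its exon bases with genes on the other strand. Rbl1 did not pass without Positive 1222 (log2 0.59), Input 1223 (0.74), Input 1227 (0.87), both 1222 libraries (0.78), both 1227 libraries (0.97) or scaling between libraries (0.72).

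E2f4, which encodes the main repressor E2F of quiescent cells, rose: 44.6, 36.4 and 35.9 CPM in Positive, while Input had 26.7, 19.98 and 23.2 CPM (log2 0.73 ± 0.18, adjusted p = 0.0073, edgeR). E2f2, an activator E2F, fell, at 2.58, 7.09 and 2.12 CPM in Positive and 13.5, 17.6 and 10.8 CPM in Input (log2 -1.95 ± 0.49, adjusted p = 0.0086, edgeR). Neither gene's groups overlapped, and E2f2 passed the deposited minimum in Input only. E2f4 did not pass without both 1227 libraries (log2 0.79), nor E2f2 without both 1222 libraries (log2 -1.74). The activators E2f1 and E2f3 did not pass (log2 -0.48 ± 0.51 and -0.08 ± 0.34), nor did E2f5 and E2f6 (0.06 ± 0.23 and 0.47 ± 0.18), E2f6 at an adjusted p of 0.0509 in edgeR, 0.0436 in DESeq2 and 0.0235 in limma.

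Of 12 genes that load and form the replicative helicase, 2 rose, 1 fell and 9 did not pass. Mcm2 to Mcm7 encode the 6 subunits of the MCM ring, which is loaded at origins in G1. Mcm6 (chromosome 1, 128331591 to 128359656) rose, Mcm7 (chromosome 5, 138164589 to 138171862) fell, and E2F-type letters stand in the promoter windows of both. Windows run from 250 bases before to 50 after a RefSeq start (RefSeq, GRCm38.p6, the same assembly as mm10) and were found for 65 of the 79 members. The letters searched were TTTGGCGC, TTTCCCGC, TTTCGCGC and TTTGCCGC on both strands, a few forms of the E2F site. At least 1 of them was in the windows of 14 of the 65 members, 21.5%, and of 4.65% of the 8244 tested genes with a window (2.60% of all 27025 genes of the table). By role it was 5 of 11 licensing and helicase genes, 4 of 13 replication fork genes and 3 of 6 retinoblastoma and E2F genes. It was also 1 of 10 mitosis and proliferation genes and the 1 gene with a window among Ccna2 and Cdk2, and none in the other roles. By call it was 5 of 11 members that rose, 2 of 9 that fell and 7 of 45 that did not pass, a description with no test. Of the 5 that rose, Cdk2 was kept in the table through Positive only, and Mcm3, Pold3 and Rbl1 lost their calls in some alternatives. Of the 2 that fell, E2f2 was kept through Input only. Nothing is read from this split. Downstream bases of a window were found in a GENCODE transcript for Mcm3, Mcm7, Rbl1 and Top2a, and not for Mcm6, Mcm5, Cdk2 and Mki67. The stretches below show these letters in capitals for MCM genes that differed in direction, and for Cdk2 and Rbl1. Positions are counted from the RefSeq start as +1, and where sites overlap, the capitals run on.
Mcm6 (rose), chr1:128359730-128359830, minus strand, -125 to -25: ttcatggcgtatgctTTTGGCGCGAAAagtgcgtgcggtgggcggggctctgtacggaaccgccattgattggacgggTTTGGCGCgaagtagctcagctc
Mcm3 (rose), chr1:20820263-20820308, minus strand, +5 to +50: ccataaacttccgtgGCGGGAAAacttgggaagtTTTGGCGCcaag
Mcm5 (did not pass), chr8:75109341-75109382, plus strand, -168 to -127: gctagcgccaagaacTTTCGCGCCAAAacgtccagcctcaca
Mcm7 (fell), chr5:138172026-138172063, minus strand, -180 to -143: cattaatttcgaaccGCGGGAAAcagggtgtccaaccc
Mcm7 (fell), chr5:138171845-138171882, minus strand, +2 to +39: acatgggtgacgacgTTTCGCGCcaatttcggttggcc
Cdk2 (rose), chr10:128705169-128705206, minus strand, -155 to -118: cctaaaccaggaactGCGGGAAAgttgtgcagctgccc
Rbl1 (rose), chr2:157204530-157204567, minus strand, -33 to +5: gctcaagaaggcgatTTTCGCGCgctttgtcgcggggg

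Mcm6 had 70.5, 66.7 and 84.2 CPM in Positive, while Input had 28.6, 35.4 and 27.3 CPM, a log2 fold change of 1.29 ± 0.16 (adjusted p = 0.000192, edgeR). Mcm7 had 16.8, 15.1 and 18.7 CPM in Positive, while Input had 27.7, 34.0 and 28.1 CPM, a log2 fold change of -0.81 ± 0.18 (adjusted p = 0.00495, edgeR). The libraries of each fraction lay close together and the fractions did not overlap for either gene. Mcm3 rose by log2 0.43 ± 0.16 (adjusted p = 0.0437), with 43.3, 33.5 and 40.4 CPM in Positive and 28.4, 28.6 and 30.5 CPM in Input, but the call was lost without Positive 1222 (log2 0.35) or 1227 (0.41), without Input 1222 (0.41), 1223 (0.42) or 1227 (0.46), without both libraries of 1222 (0.32) or 1227 (0.44), without scaling (0.27) and with at least 1 CPM asked of all 6 libraries (0.40). Mcm2, Mcm4 and Mcm5 did not pass (log2 0.23 ± 0.22, 0.02 ± 0.18 and -0.57 ± 0.24), and Mcm2 passed without both 1223 libraries (log2 0.51). Mcm5 reached the deposited minimum only in Input, lay without overlap at 11.2, 9.31 and 10.5 CPM in Positive and 12.95, 19.6 and 14.4 CPM in Input, and passed the test without scaling between libraries (log2 -0.72).

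Per kilobase of exon, Mcm6 made up 34.8% ± 2.19 of the summed MCM2-7 level in Positive and 17.5% ± 1.01 in Input (SD, n = 3 each). Mcm7 made up 8.38% ± 0.31 in Positive and 18.2% ± 0.41 in Input. The highest subunit stood 6.12-fold ± 0.73 above the lowest in Positive and 3.04-fold ± 0.31 in Input. Each of these 3 quantities separated the fractions, with an exact two-sided permutation p of 0.1, the smallest possible. The summed level was 45.4 ± 3.30 CPM per kilobase in Positive and 37.2 ± 4.47 in Input, and the groups overlapped (exact permutation p = 0.2). Exon length is the union over annotated transcripts, so these shares also depend on which isoforms were present.

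**Figure D3:**
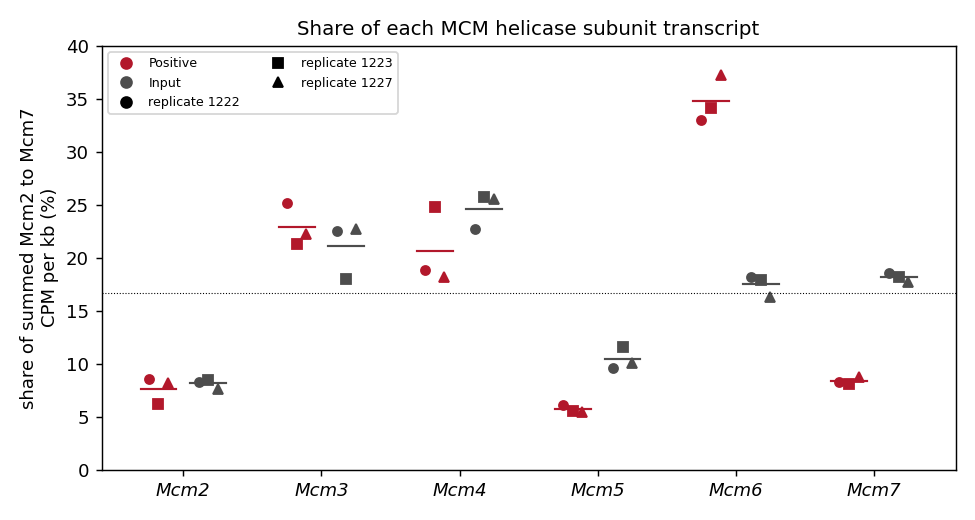
Share of each subunit in the summed CPM per kilobase of Mcm2 to Mcm7, for Positive (left of each pair) and Input libraries, with a line at the mean of 3 and a dotted line at equal shares. Mcm6 lies near 35% in Positive and Mcm7 near 8%, while both lie near 18% in Input.

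The origin recognition genes Orc2 to Orc6 did not pass, with log2 fold changes from -0.22 to 0.26 (29.8% of the exon bases of Orc2 overlap another gene), and neither did Mcm9 (log2 -0.37 ± 0.32), which encodes a helicase of DNA repair. At the replication fork 12 of 14 genes did not pass, with log2 fold changes from -0.42 to 0.47. The highest of them was Pold1, the catalytic subunit of polymerase delta (log2 0.47 ± 0.18, adjusted p = 0.0513 by edgeR), which passed in DESeq2 (adjusted p = 0.038) and limma (adjusted p = 0.00775). In Pold4, 24.6% of the exon bases overlap another gene. Pcna, the sliding clamp and the most abundant of them per kilobase, had 69.5, 74.5 and 78.6 CPM in Positive and 73.5, 90.7 and 81.8 CPM in Input, with overlapping groups (log2 -0.14 ± 0.13, adjusted p = 0.399, edgeR). Pold3, a subunit of polymerase delta, rose, with 37.2, 31.3 and 34.8 CPM in Positive and 26.2, 12.6 and 21.7 CPM in Input (log2 0.75 ± 0.25, adjusted p = 0.034). Rpa1, the large subunit of the single-strand binding protein, fell, with 72.9, 60.5 and 81.5 CPM in Positive and 103.3, 83.7 and 122.7 CPM in Input (log2 -0.53 ± 0.18, adjusted p = 0.0339).

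Both calls were lost when some libraries were left out. Pold3 did not pass without Positive 1222 (log2 0.69), Positive 1223 (0.81), Positive 1227 (0.74), Input 1227 (0.80), both 1227 libraries (0.79) or scaling (0.59). Rpa1 did not pass without Positive 1222 (log2 -0.53), Positive 1223 (-0.42), Input 1222 (-0.53), Input 1227 (-0.38), both libraries of 1222 (-0.54) or 1227 (-0.49), or in limma on the deposited log2 values (-0.45).

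Of 35 listed replication genes that the symbol rule does not cover, 18 were tested, 2 rose and 3 fell, with a median log2 fold change of 0.07. Rises and falls were 11.1% and 16.7% of the tested genes of this list, against 26.1% and 29.4% of all genes. Calls in either direction covered 27.8% of it and 55.5% of all genes. Timeless, whose product stabilises stalled forks, rose (41.4 CPM in Positive and 9.17 CPM in Input, log2 2.17 ± 0.23, adjusted p = 7.81e-05), as did the maintenance methyltransferase gene Dnmt1 (log2 0.57 ± 0.18). Timeless was under 50 counts in Input 1223 (8.39 CPM against 9.98). It was thus kept through Positive only and favoured to be higher there. Rrm2, the S-phase subunit of ribonucleotide reductase, fell (1.10 CPM in Positive and 11.7 CPM in Input, log2 -3.68 ± 0.55, adjusted p = 0.000546). Uhrf1 (log2 -1.56 ± 0.39) and Dut (-1.22 ± 0.29) fell too. Rrm2, Uhrf1 and Dut were under 50 counts in Positive 1223. These genes were thus kept through Input only and favoured to be lower in Positive. The adjusted p values are from edgeR.

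The proliferation markers Mki67 and Top2a were low in Positive. Mki67, which encodes the antigen Ki-67 of cycling cells (chromosome 7, 135689788 to 135716379), had 1.90, 4.43 and 1.75 CPM in Positive, while Input had 17.0, 10.2 and 7.47 CPM, a log2 fold change of -2.24 ± 0.50 (adjusted p = 0.00496, edgeR). Top2a, the topoisomerase of dividing cells (chromosome 11, 98992947 to 99024189), had 2.12, 2.66 and 2.81 CPM in Positive, while Input had 18.7, 16.0 and 13.1 CPM, a log2 fold change of -2.66 ± 0.30 (adjusted p = 0.000106, edgeR). Neither gene's groups overlapped. Both reached the deposited minimum only in Input, and Mki67 lost its call without both 1222 libraries (log2 -1.62). Top2b, the topoisomerase that non-dividing cells also use, had 202, 179 and 169 CPM in Positive and 177, 166 and 146 CPM in Input, with overlap (log2 0.17 ± 0.13, adjusted p = 0.299).

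Beside these falls, 11 of 11 microglial markers, 8 of 10 markers of oligodendrocyte precursors and 8 of 10 of neuroblasts and progenitors fell. In the precursor list Cspg4, which is also in the pericyte list, rose (log2 0.655 ± 0.219). The microglial sums are given beside Cdkn1a, and the summed precursor level was 146, 162 and 166 CPM in Positive and 1128, 1816 and 1182 CPM in Input. In the progenitor list Nes, which endothelium also expresses, rose and set the sum (1785, 1774 and 1710 CPM in Positive; 868, 1254 and 817 CPM in Input), while Dcx fell by 3.98 on the log2 scale. In Positive 1223 the progenitor markers Dcx, Sox11, Dlx1, Dlx2, Dlx5, Eomes and Igfbpl1 were under 50 counts. So were Olig2, Gpr17, Enpp6, Neu4 and Vcan of the precursor list. All of these were kept through Input only and so were favoured to be lower in Positive. No tested marker of these lists was at 0 counts in all Positive libraries. Their part in the levels of Mki67 and Top2a was not tested.

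Genes of mitosis often carry CHR elements and CCAAT boxes in their promoters, where the DREAM complex and NF-Y bind. Letters of the CHR type (TTTGAA or TTCGAA, either strand) were in the windows of 4 of 9 members that fell, 1 of 11 that rose and 9 of 45 that did not pass, and of 15% of tested genes with a window. The 4 that fell were Top2a, Mki67, E2f2 and Mcm7, of which the first 3 were kept in the table through Input only and so were favoured to be lower in Positive; nothing is read from the split by call. CCAAT (either strand) was in 7 of 9, 5 of 11 and 28 of 45, and in 42.8% of tested genes. In Top2a 4 CHR and 6 CCAAT matches lay in the window, and in Mki67 2 and 3, shown in capitals in these stretches because both genes fell.
Top2a, chr11:99024192-99024431, minus strand, -242 to -3: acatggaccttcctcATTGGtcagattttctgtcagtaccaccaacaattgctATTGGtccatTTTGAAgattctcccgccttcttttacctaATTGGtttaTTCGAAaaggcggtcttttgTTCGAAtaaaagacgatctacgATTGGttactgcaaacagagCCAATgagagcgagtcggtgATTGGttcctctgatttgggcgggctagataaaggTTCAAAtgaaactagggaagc
Mki67, chr7:135716457-135716582, minus strand, -203 to -78: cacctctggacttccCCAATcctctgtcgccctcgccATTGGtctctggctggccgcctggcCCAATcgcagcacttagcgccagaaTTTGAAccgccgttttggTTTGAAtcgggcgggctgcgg

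Other proliferation genes at low levels did not pass. Birc5, which encodes survivin of the chromosomal passenger complex, had 4.43, 19.1 and 3.97 CPM in Positive and 5.50, 14.2 and 3.41 CPM in Input (log2 0.25 ± 0.74, adjusted p = 0.799, edgeR). Bub1, a spindle checkpoint kinase gene, had 2.53, 9.76 and 1.96 CPM in Positive and 3.10, 11.2 and 1.56 CPM in Input (log2 -0.15 ± 0.89, adjusted p = 0.901). In both genes the 1223 library was highest in each fraction and the fractions overlapped. At the depth of 1223, 50 counts equal 11.1 CPM in Positive 1223 and 9.98 CPM in Input 1223, against 0.916 to 2.65 CPM in the other libraries. The mean over Input 1222 and 1227 lay under 9.98 CPM for 7 members that reached the minimum in Input (Birc5, Bub1, Ccna2, Cdkn2c, E2f1, Mcm9 and Rpa3) and for 455 genes of the whole table. The part of this minimum in their levels was not tested.

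**Figure D4:**
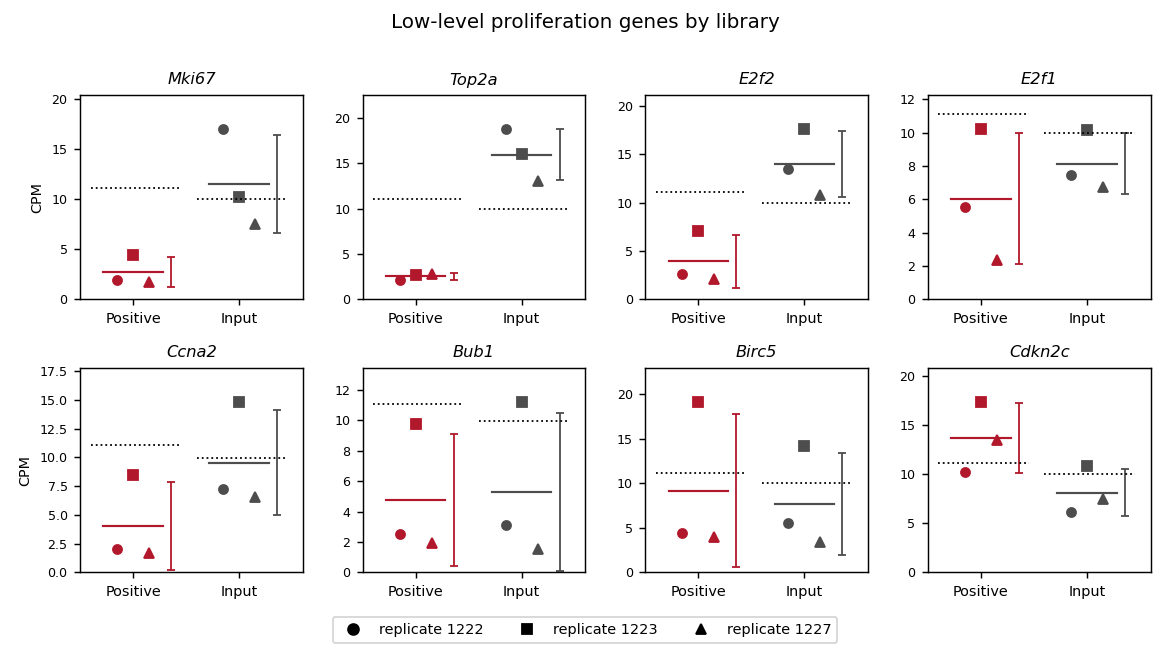
CPM of low-level members in each library, with Positive left and Input right, a line at the mean, a bar of ± 1 SD (n = 3) and a dotted line at the CPM that 50 counts give in the 1223 library of that fraction. Mki67, Top2a and E2f2 separate downward in Positive, and the 1223 library stands above the others in Birc5 and Bub1.

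Cdc25a, Cdc25b and Bub3 did not pass (log2 0.31 ± 0.28, 0.50 ± 0.22 and 0.03 ± 0.19); the first pair encode phosphatases that activate CDKs, and Bub3 encodes a spindle checkpoint protein. Cdc25b passed in limma (log2 0.54, adjusted p = 0.0425). Of the 10 members grouped under mitosis and proliferation, 1 rose (Plk2, described below) and 3 fell (Mki67, Top2a and Plk3). Of 30 listed mitosis and checkpoint genes outside the rule 12 were tested, 2 rose and 5 fell, with a median log2 fold change of -0.03. Rises and falls were 16.7% and 41.7% of the tested genes of this list, against 26.1% and 29.4% of all genes. Calls in either direction covered 58.3% of it and 55.5% of all genes. Anln, which encodes a contractile ring scaffold that is also found in myelin, fell most (9.76 CPM in Positive and 167 CPM in Input, log2 -4.09 ± 0.23, adjusted p = 3.32e-06), followed by the kinetochore gene Nuf2 (log2 -2.77 ± 0.47), Tpx2 (-1.90 ± 0.58), Racgap1 (-1.39 ± 0.33) and Mad2l1 (-0.91 ± 0.32). The kinase genes Chek2 and Wee1, which brake the cycle, rose by log2 0.998 ± 0.326 and 0.70 ± 0.26. Anln, Nuf2, Tpx2, Racgap1 and Mad2l1 were under 50 counts in Positive 1223, and Chek2 and Wee1 in Input 1223. Each was thus kept through the other fraction and favoured to be higher there. Of 20 listed genes of the ubiquitin ligases SCF and APC/C 18 were tested, and 6 rose and 1 fell (median log2 0.27). Rises and falls were 33.3% and 5.56% of this list, against 26.1% and 29.4% of all genes. Calls in either direction covered 38.9% of it and 55.5% of all genes. Among the genes that rose were the deubiquitinase gene Usp7 (log2 0.81 ± 0.15) and Cdc23 (0.51 ± 0.12). The calls are from edgeR.

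The polo-like kinases Plk2 and Plk3, which respond to stress and to neuronal activity and are not mitotic kinases like Plk1, differed in direction. Plk2 (chromosome 13, 110395044 to 110400843) had 206, 104 and 132 CPM in Positive, while Input had 41.9, 39.2 and 26.7 CPM, a log2 fold change of 2.05 ± 0.28 (adjusted p = 0.000309, edgeR). Like Cdkn1a it was highest in Positive 1222, the Positive library with the highest sums of dissociation genes, perivascular macrophage markers and microglial markers; without that library its log2 fold change was 1.73 (adjusted p = 0.000295). The part of those lists in the level of Plk2 was not tested. Plk3 had 22.2, 12.4 and 11.3 CPM in Positive, while Input had 30.6, 27.0 and 23.5 CPM, a log2 fold change of -0.80 ± 0.28 (adjusted p = 0.0391). Plk3 did not pass without Positive 1223 (log2 -0.69), Positive 1227 (-0.61), Input 1222 (-0.70), Input 1223 (-0.80), Input 1227 (-0.90), or both libraries of 1223 (-0.69) or 1227 (-0.71).

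Of 7 kinases outside the core cycle, 1 rose, 3 fell and 3 did not pass, and Cdk18 had the deepest fall of all members. Cdk18, a PCTAIRE kinase (chromosome 1, 132113547 to 132139685), had 3.03, 1.33 and 2.86 CPM in Positive, while Input had 43.8, 52.7 and 44.6 CPM, a log2 fold change of -4.16 ± 0.27 (adjusted p = 5.56e-06, edgeR). It passed the deposited minimum in Input only. Cdk5, the kinase of postmitotic neurons that p35 and p39 activate in place of a cyclin (chromosome 5, 24418242 to 24423530), had 20.8, 23.1 and 22.2 CPM in Positive, while Input had 42.4, 52.5 and 49.6 CPM, a log2 fold change of -1.13 ± 0.15 (adjusted p = 0.000297). The genes of its activators fell too: Cdk5r1 (p35) by log2 -3.26 ± 0.23 and Cdk5r2 (p39) by -3.50 ± 0.52. Both activator genes were under 50 counts in Positive 1223 (7.76 and 3.99 CPM against 11.1). They were kept through Input only and so were favoured to be lower in Positive. All 10 oligodendrocyte markers fell (summed 1282, 1025 and 1959 CPM in Positive; 20240, 30480 and 21620 CPM in Input), and so did all 6 neuronal markers tested of 10 (44.5, 50.8 and 67.9 CPM in Positive; 456, 524 and 564 CPM in Input), none of them at 0 counts in all Positive libraries. The oligodendrocyte marker Opalin and the neuronal markers Tubb3, Snap25, Syt1, Gad1 and Camk2a were under 50 counts in Positive 1223. These markers were kept through Input only and so were favoured to be lower in Positive. The part of both lists in the falls of Cdk18 and Cdk5 was not tested.

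Cyclin Y, its kinase partners and their relatives did not share a direction. Ccny encodes a membrane-anchored cyclin that binds Cdk14 and Cdk16 and takes part in Wnt receptor phosphorylation. It had 268, 272 and 286 CPM in Positive, while Input had 110.3, 124 and 119 CPM, a log2 fold change of 1.23 ± 0.12 (adjusted p = 3.45e-05, edgeR). Cdk17, a PCTAIRE kinase, rose as well, with 130, 150.1 and 133 CPM in Positive and 66.9, 57.5 and 63.6 CPM in Input (log2 1.13 ± 0.13, adjusted p = 0.000107). Cdk14, a PFTAIRE kinase, fell, with 20.8, 18.6 and 24.0 CPM in Positive and 35.6, 42.6 and 35.5 CPM in Input (log2 -0.83 ± 0.17, adjusted p = 0.00335). None of these 3 genes overlapped between fractions. Cdk16 had 115, 98.9 and 107 CPM in Positive and 113, 85.5 and 122 CPM in Input, with overlap (log2 0.00 ± 0.16, adjusted p = 0.999). The remaining kinases of the group, Cdk10 and Cdk20, did not pass (log2 -0.26 ± 0.23 and -0.15 ± 0.25). Ccnyl1, the paralogue of Ccny outside the symbol rule, rose by log2 0.85 ± 0.25 (adjusted p = 0.0187).

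**Figure D5:**
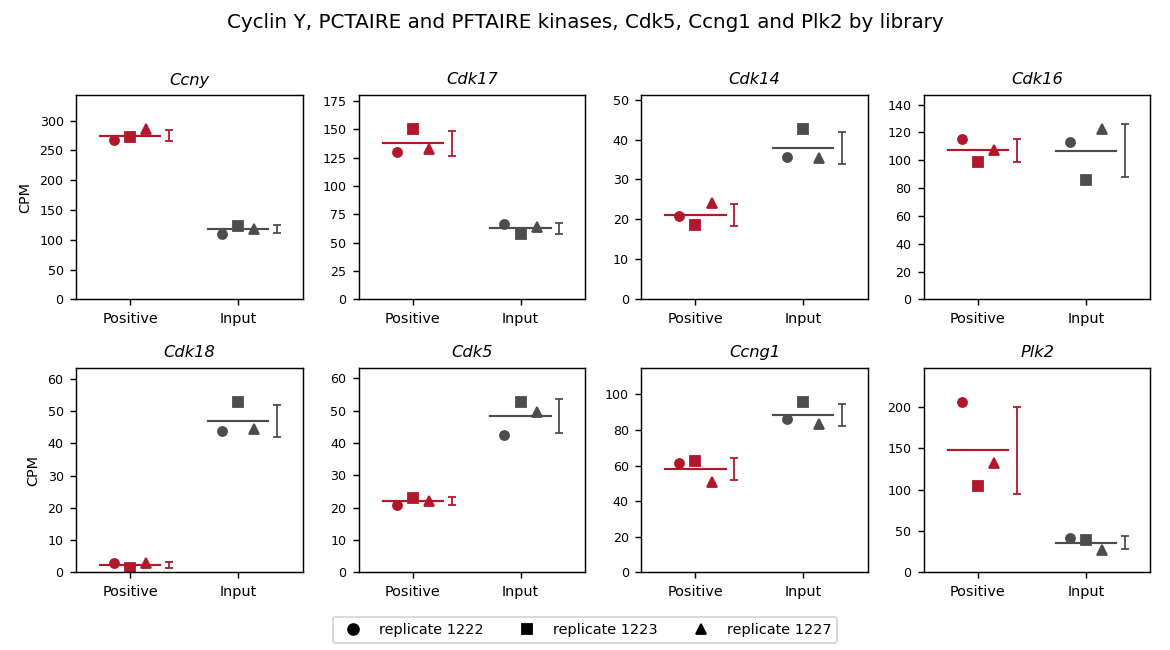
CPM of Ccny, the PCTAIRE and PFTAIRE kinases, Cdk5, Ccng1 and Plk2 in each library, with Positive left and Input right, a line at the mean and a bar of ± 1 SD (n = 3). Ccny, Cdk17 and Plk2 separate upward in Positive, Cdk14, Cdk18, Cdk5 and Ccng1 separate downward, and Cdk16 overlaps.

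Of the remaining cyclins, Ccni, which encodes cyclin I, had the highest level per kilobase of all members in both fractions, 116 CPM per kilobase in Positive and 124 in Input, and did not pass (log2 -0.10 ± 0.14, adjusted p = 0.548). Ccnj, which encodes cyclin J, rose, at 14.5, 19.5 and 12.3 CPM in Positive and 7.92, 6.39 and 5.81 CPM in Input (log2 1.18 ± 0.28, adjusted p = 0.00713); it passed the deposited minimum in Positive only and just missed the threshold without both 1227 libraries (log2 1.22, adjusted p = 0.0501). Ccng2 did not pass (log2 -0.29 ± 0.17), but passed as a fall without Input 1223 (log2 -0.42) and without both 1223 libraries (-0.50). The adjusted p values are from edgeR.

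Of the 10 cyclins and kinases of transcription, which act on RNA polymerase II or its mediator complex, 1 was called, and the median log2 fold change was 0.18. Ccnt1, the cyclin of the elongation kinase P-TEFb, rose, at 21.8, 14.4 and 19.1 CPM in Positive and 12.8, 10.8 and 9.45 CPM in Input (log2 0.76 ± 0.24, adjusted p = 0.0272, edgeR), while for its kinase Cdk9 log2 was 0.15 ± 0.14 (adjusted p = 0.397). Ccnt1 did not pass without Positive 1222 (log2 0.62), Positive 1227 (0.73), Input 1223 (0.74), Input 1227 (0.65), both libraries of 1222 (0.74) or 1227 (0.62), or scaling (0.60). The elongation kinase genes Cdk12 and Cdk13 had log2 0.90 ± 0.36 and 0.59 ± 0.28 (adjusted p = 0.0608 and 0.105) and passed with the replicate block (log2 0.95 and 0.63, adjusted p = 0.0289 and 0.0254). Without Input 1222 both passed too (1.39 and 0.91), as without both 1222 libraries (1.25 and 0.73), and Cdk12 without Positive 1227 (1.10), in DESeq2 (0.92) and in limma (1.10). Ccnh, the cyclin of Cdk7, did not pass (log2 -0.44 ± 0.26), but did without Input 1223 (-0.65) and without both 1223 libraries (-0.56). Cdk7, Cdk19, Ccnc, Ccnk and Ccnt2 did not pass (log2 0.33 ± 0.20, 0.21 ± 0.15, -0.23 ± 0.20, 0.06 ± 0.17 and -0.08 ± 0.24).

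Of 34 listed partners of CDKs, RB and E2F 25 were tested, and 6 rose and 6 fell, with a median log2 fold change of 0.08. Rises and falls were each 24% of this list, near the 26.1% and 29.4% of all genes. Calls in either direction covered 48% of it and 55.5% of all genes. Rbbp7, a histone chaperone that binds the retinoblastoma protein, rose (175 CPM in Positive and 110 CPM in Input, log2 0.67 ± 0.14), as did Cables2 (log2 1.61 ± 0.26), the mediator kinase module gene Med12 (0.53 ± 0.17) and Larp7, a part of the complex that holds P-TEFb inactive (0.63 ± 0.14). The DREAM complex gene Lin52 fell (log2 -1.13 ± 0.26), as did the centrosomal Cdk5 partner gene Cdk5rap2 (-1.24 ± 0.18). Lin52 was under 50 counts in Positive 1223 (10.9 CPM against 11.1). It was kept through Input only and so was favoured to be lower in Positive. The E2F dimer partners Tfdp1 and Tfdp2 did not pass.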

How the data were processed

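Directional total RNA-seq libraries of 3 Positive and 3 Input samples were compared. The authors' deposited raw columns hold estimated counts per gene, mostly not whole. The deposited log2 columns hold normalised values, equal to log2 counts with 1 factor per library and 1 constant per gene within 0.05 for 99.8% of values. Per the file headers, genes with at least 50 in all libraries of at least 1 fraction were kept. Per the submitters' processing notes the build was mm10 and DESeq was used; aligner, counter and use of strand: not given in the sources used here.

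Counts were rounded and tested over 10989 genes with edgeR 4.0.16 (R 4.3.3; TMM factors 0.94 to 1.082; filterByExpr, minimum count 10, which removed 0 genes; quasi-likelihood, fraction as the only term; prior count 2), at an adjusted p below 0.05. The fit was tested on simulated data. DESeq2 1.42.0, limma 3.58.1, other scaling and filters, left-out libraries and a replicate block were alternatives. Libraries of equal number deviated together from their fraction means (correlations across genes 0.45, 0.23 and 0.30 for 1222, 1223 and 1227), so the numbers in the titles were taken to pair them. The block was nevertheless an alternative, and the exact permutation tests of shares are unpaired; sign changes of 3 pairs could not reach as low a p. The series calls the replicates biological without naming animals, and p-values measure the spread among these libraries, which may be technical. Exon lengths are GENCODE vM21 unions.

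Every member was accounted for by role. Per-library values were meant for members with the highest mean CPM or largest change in their role and for those called against it, and for listed genes outside the rule the called ones with the highest CPM; other genes given values were chosen after their values were seen. The members and lists were chosen with earlier results of these data known.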

Additional observations from a re-analysis of the deposited data

How the results depend on the processing

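Of the 26 called members, 15 were called in the same direction under all 16 alternatives: Ccnd1, Ccnd3, Ccny, Cdk2, Cdk17, Cdkn1a, Cdkn2b, Mcm6 and Plk2 rose, and Ccnd2, Cdk5, Cdk14, Cdk18, Mcm7 and Top2a fell. The numbers of members that rose and fell were 18 and 12 with the replicate block, 18 and 11 by DESeq2, 20 and 11 by limma run on the log2 columns, and 11 and 12 without scaling, where the median log2 fold change of all genes was -0.128, against 0.029 with it. Leaving out libraries gave 9 to 17 and 8 to 13. Over all genes the numbers that rose and fell moved as well: 2870 and 3227 by edgeR as described, 3298 and 3482 with the block, 2983 and 3362 by DESeq2, 3253 and 2950 by limma, 2165 and 3666 without scaling, and 1741 and 2393 without both 1227 libraries. The block ended no call and added Ccna2, Cdk12, Cdk13 and Cdkn2c. No called member changed sign. Members that missed the threshold in both settings changed the sign of their log2 fold change as follows: without scaling between libraries Bub3 (-0.122), Ccnk (-0.089), Cdk9 (-0.001), Cdkn1b (-0.008), E2f5 (-0.097), Mcm4 (-0.138), Orc3 (-0.016), Pole3 (-0.003) and Rfc1 (-0.105); in limma Bub1 (0.024), Ccnt2 (0.02), Cdk16 (0.089), Cdk4 (0.084), Cdkn1c (0.043), E2f3 (0.077), Pole4 (0.039) and Rb1 (0.086); with at least 1 CPM asked of all 6 libraries Bub3 (0) and Mcm4 (-0.014); with the replicate block Cdk16 (0.009) and Cdk4 (0.02). On leaving out libraries the log2 fold changes of such members ran on both sides of 0: Bub1 -1.049 to 0.899, Cdk4 -0.132 to 0.185, Pole4 -0.247 to 0.103, Rfc1 -0.164 to 0.28, Birc5 -0.766 to 0.952, Bub3 -0.105 to 0.207, Cdk16 -0.133 to 0.107, E2f3 -0.349 to 0.126, E2f5 -0.208 to 0.218, Mcm4 -0.105 to 0.138, Ccnk -0.107 to 0.167, Rb1 -0.237 to 0.132, Ccnt2 -0.237 to 0.17, Cdkn1c -0.16 to 0.091, Orc4 -0.19 to 0.072, Orc6 -0.425 to 0.093, Rpa3 -0.437 to 0.091, Orc3 -0.009 to 0.304, Pola1 -0.804 to 0.058 and Pold2 -0.378 to 0.01. The cause was not tested. The depth of both 1223 libraries limits members under about 10 CPM.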
